A study of Mus musculus with 4 samples.

Results

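Pericytes of the skeletal muscle microvasculature were found among cells that had been sorted for satellite cell antigens. They were selected on their own transcripts: a barcode was taken as a pericyte with 1000 to 5000 genes, at most 8% mitochondrial unique molecular identifiers (UMIs), a UMI of at least 4 of the 7 genes *Rgs5*, *Kcnj8*, *Abcc9*, *Pdgfrb*, *Higd1b*, *Ndufa4l2* and *Colec11*, and at most 1 *Pax7* UMI. It also had to be without any UMI of *Cdh5*, *Sox10* or *Ptprc*, and to hold UMIs of at most 1 of the smooth muscle genes *Pln*, *Tesc* and *Rergl*. This gave 2152 pericytes among the 20850 barcodes within the limits on genes and mitochondrial UMIs, with 88, 611, 464 and 989. The levels of the genes in this rule, and the contrast of pericytes with other cells, are therefore descriptions of the choice and were not tested.

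Pericytes are the mural cells that wrap capillaries and small venules and share a basement membrane with the endothelium, which recruits them through PDGF-B acting on the receptor PDGFRB. They set capillary tone through a smooth muscle-type contractile apparatus, ATP-sensitive potassium channels and receptors for endothelin and noradrenaline, and they secrete matrix, chemokines and growth factors. In muscle they lie close to satellite cells, and dystrophin is also made by contractile cells of the vessel wall.

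Cells were taken from the lower hindlimbs of mice by sorting for ITGA7 and VCAM and against the lineage antigens Cd11b, Sca1, Cd45 and Cd31, and were measured with the 3′ single-cell chemistry of 10X Genomics. B10 (C57/Bl10ScsSn, 15 weeks) is the wildtype control of *mdx* (C57BL/10ScSn-Dmdmdx, 11 weeks), and DBA (DBA/2, 13 weeks) is that of D2-*mdx* (D2.B10-Dmdmdx, 14 weeks). All mice were male, and the dystrophic strains carry the *mdx* allele, a nonsense mutation of *Dmd*, in every cell. Each strain is 1 library from 2 pooled mice, so strain cannot be told apart from library, sort and age, no strain pair could be tested, and every interval below covers counting error only at a confidence level of 95% (exact Poisson or binomial).

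Runs of 4 values are in the order B10, *mdx*, DBA, D2-*mdx* throughout. Pairs of log2 ratios set *mdx* against B10 first and D2-*mdx* against DBA second. The summed pericyte counts were 933138, 5028776, 5324543 and 7736281 UMIs, so the B10 values are the least precise. Median depth per pericyte was 9872, 7966, 10928 and 6957 UMIs in this order, with medians of 3329, 2818, 3530.5 and 2616 genes. The shallowest barcode within the limits had 1730 UMIs, 3071, 8487 and 4225, so the libraries differ in how far down their barcodes reach. Across libraries, 61 barcode sequences occurred more than once. They included 10 pericytes (0, 2, 1 and 7), none of which was a pericyte in both libraries.

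The libraries also differed in RNA composition. *Gm42418* and *AY036118*, loci that hold stretches of ribosomal RNA sequence, took 1.89%, 0.595%, 1.69% and 0.327% and 0.257%, 0.0604%, 0.320% and 0.0363% of pericyte UMIs. Both were therefore lower in each dystrophic library, and *Gm42418* was so in satellite cell-like cells too (0.897%, 0.365%, 0.532% and 0.164%). Ribosomal protein genes took 10.8%, 13.2%, 11.3% and 14.8% of pericyte UMIs, and mitochondrial genes 3.89%, 3.29%, 2.96% and 3.12%. The part of these shifts in the comparisons below was not tested.

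Within the limits were 4762, 6669, 3370 and 6049 barcodes, of 9931, 7173, 3539 and 6782 deposited, so B10 lost by far the largest part. Pericytes made up 1.85% (1.48 to 2.27), 9.16% (8.48 to 9.88), 13.8% (12.6 to 15.0) and 16.3% (15.4 to 17.3) of the barcodes within the limits. The order B10, *mdx*, DBA, D2-*mdx* was thus outside counting error at each step. Applying the rule to barcodes thinned to 3000 UMIs left the shares at 1.67%, 9.15%, 13.3% and 16.2%. With only barcodes of at least 8487 UMIs, a limit set after the depths were seen, the shares were 2.51% (1.92 to 3.21), 10.1% (8.96 to 11.3), 13.8% and 14.5% (13.0 to 16.2), so that the DBA and D2-*mdx* intervals overlapped. These are shares of sorted cells, set also by how many pericytes passed the gates for ITGA7 and VCAM, and give no number of pericytes per muscle.

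**Figure D1:**
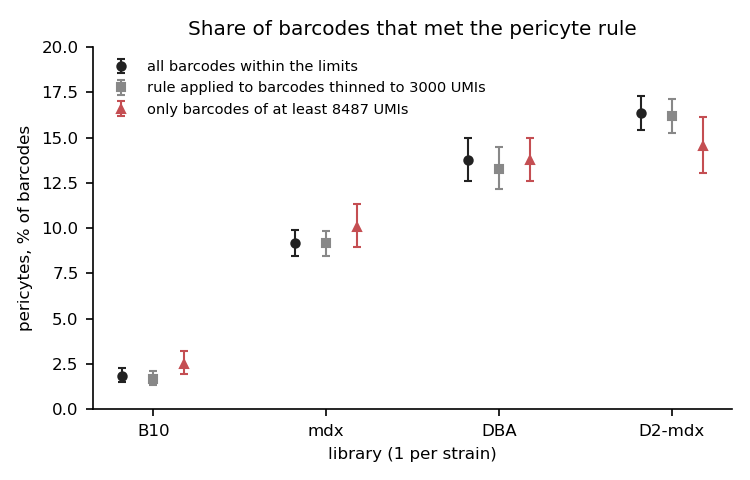
Percent of barcodes that met the pericyte rule in each library (1 library per strain), with exact 95% binomial intervals, over all barcodes within the limits, after thinning to 3000 UMIs and over barcodes of at least 8487 UMIs. B10 is lowest at 1.85% and D2-*mdx* highest at 16.3%, and over the deeper barcodes DBA (13.8%) and D2-*mdx* (14.5%) overlap.

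Of the 2152 pericytes, 1159 had a UMI of all 7 genes, 707 of 6, 219 of 5 and 67 of only 4. Just outside the rule, 35 barcodes had 3 of the genes and met every other condition. Summed *Rgs5* was 3514 CPM (UMIs per 1000000 summed UMIs) at 4 genes and 808 CPM at 3. Of the 2482 barcodes with at least 4 genes, 207 were lost for more than 1 *Pax7* UMI, 54 for *Cdh5*, 38 for *Sox10*, 33 for *Ptprc* and 21 for smooth muscle genes, with overlaps.

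The genes used for the choice were present in every library. *Rgs5*, a regulator of G protein signalling, was at 6746, 7160.0, 7582 and 7888 CPM. *Kcnj8* and *Abcc9*, the pore and the sulphonylurea receptor of the vascular ATP-sensitive potassium channel and neighbours 16.2 kb apart on chromosome 6, were at 478, 632, 490.0 and 672 CPM and at 505, 394, 459 and 386 CPM. *Pdgfrb* lay between 468 and 521 CPM. *Higd1b* and *Ndufa4l2*, mitochondrial proteins induced by low oxygen, were at 225, 384, 172 and 255 CPM and at 490, 843, 567 and 763 CPM. *Colec11*, a collectin of the complement system, stood at 559 CPM in B10 against 978, 980.2 and 1114 CPM in the other libraries.

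The sort itself bears on which pericytes were seen. *Itga7* was at 96.4, 114, 123 and 104 CPM in pericytes, against 62.1 to 82.2 CPM in satellite cell-like cells. *Vcam1* was at 117, 106, 135 and 126 CPM, against 355 to 589 CPM in satellite cell-like cells. The transcripts of both sort antigens were thus present in the pericytes of every library. *Ly6a* (Sca1), used for exclusion, was at 10.7, 22.7, 3.94 and 21.1 CPM, and *Pecam1* (Cd31) at 1.79 to 2.44 CPM.

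Mural genes outside the rule were set against satellite cell-like cells, a contrast that does not separate pericytes from smooth muscle. The contrast with smooth muscle-like cells is given below. Of 24 measured genes of a mural identity list, 21 were at least 2-fold above satellite cell-like cells in all 4 libraries, and none was below. Of all 4473 genes compared, 716 (16.0%) were higher in this way and 333 (7.44%) lower; the choice of cells fixes these directions. By the lowest of the 4 ratios, the leading genes outside the rule were *Kcnk3* (an acid-sensitive potassium channel; 111 to 273 CPM in pericytes), *Ednra* (endothelin receptor; 304 to 352 CPM), *Npy1r* (neuropeptide Y receptor; 206 to 641 CPM), *Lmod1* (leiomodin, which nucleates actin; 250.1 to 669 CPM), and *Gucy1b3* and *Gucy1a3* (the nitric oxide receptor, soluble guanylate cyclase). Their log2 ratios over satellite cell-like cells were at least 7.78 in every library. *Adra2a* (an adrenergic receptor), *Procr*, *Ebf2*, *Meox2*, *Aoc3*, *Tinagl1* and *Cyp4b1* were also among the 20 leading genes.

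Transcripts of most other cell types were low in pericytes. The 10 satellite cell markers summed to 210.0, 202, 140.3 and 225 CPM against 3254 to 4784 CPM in satellite cell-like cells, with *Sdc4* the most abundant and *Megf10* at 0 in B10. The 10 endothelial markers summed to 266, 226, 259.9 and 187 CPM, of which *Flt1*, a VEGF receptor, gave 231, 195, 219 and 120.3 CPM, and *Cldn5* was at 0 in B10 and DBA. Glial markers summed to 32.2, 52.7, 28.7 and 95.4 CPM, with *S100b* most abundant except in *mdx*, where *Ngfr* was. White blood cell markers summed to 15.0, 26.4, 7.32 and 118 CPM, of which *Lyz2*, a lysozyme of macrophages and the most abundant except in B10, gave 1.07, 10.1, 2.07 and 64.2 CPM. After thinning, *Lyz2* was found in 12.2% (10.3 to 14.4) of D2-*mdx* pericytes and in 11.8% (10.8 to 12.9) of D2-*mdx* satellite cell-like cells (28.6% of pericytes unthinned), and its source was not tested. Fibroblast and tenocyte markers summed to 631, 302, 1082 and 889.6 CPM, with *Dpt* or *Mfap5* most abundant, and *Pdgfra*, which defines fibroblasts, was at 1.07, 0, 0.188 and 1.29 CPM. Myofibre transcripts summed to 65.4, 46.1, 94.7 and 75.1 CPM and erythrocyte transcripts to 23.6, 60.9, 16.2 and 63.2 CPM. The part of these transcripts in the results below was not tested. Median depth in satellite cell-like cells was 8466, 6914, 10283 and 6351 UMIs.

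**Figure D2:**
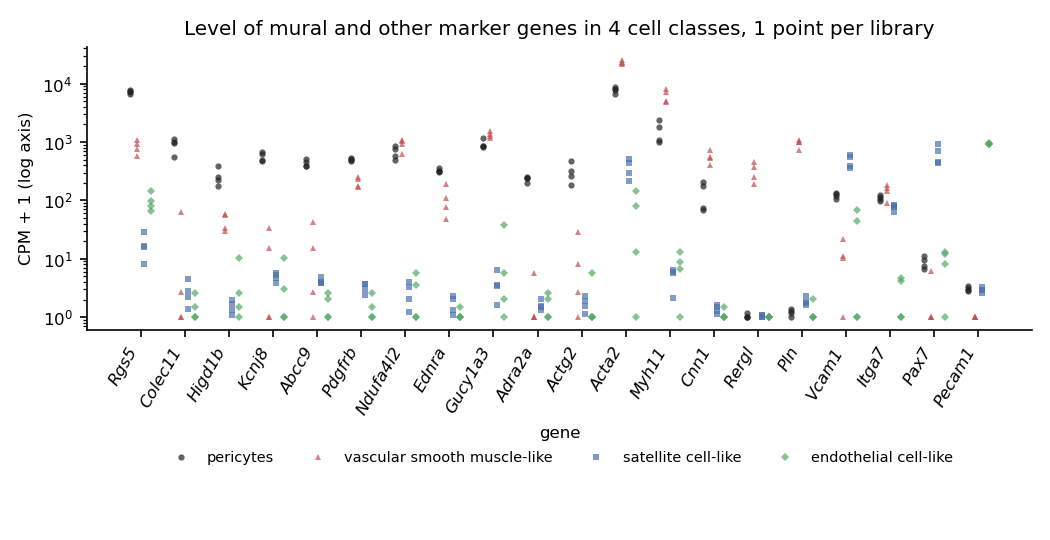
Levels of 20 mural and other marker genes (CPM plus 1, log axis) in pericytes, vascular smooth muscle-like, satellite cell-like and endothelial cell-like cells, with 1 point per library and class. *Rgs5* lies between 6746 and 7888 CPM in pericytes, whereas *Pln* and *Rergl* are near 0 there and high in smooth muscle-like cells.

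Vascular smooth muscle-like cells, with UMIs of at least 2 of *Pln*, *Tesc* and *Rergl*, numbered 91 in all (6, 54, 14 and 17), so *mdx* makes up more of their sum than of the pericytes. Over the summed libraries, 583 of 3676 genes (15.9%) were at least 2-fold higher in pericytes and 467 (12.7%) lower, as a description, since the rule used these genes. Chemokine and inflammation genes were higher in pericytes for 14 of 15 measured, interferon and antigen presentation genes for 18 of 20 and fibrillar matrix genes for 23 of 30. Contractile genes were lower for 15 of 19. Genes of the mural identity list went both ways, with 9 of 26 measured higher in pericytes and 9 lower. Among the genes highest in pericytes, *Ccl11* (eotaxin) was at 675, 1158.5, 938 and 1028 CPM against 0 to 77.4 CPM in smooth muscle-like cells, *Col6a1* (collagen VI) at 796, 748, 663 and 591 CPM against 1.70 to 21.1 CPM, and *Mfap5* (a microfibril protein) at 373, 181, 390 and 344 CPM. *Acta2*, alpha smooth muscle actin, was still at 7871, 8204, 8749 and 6504 CPM in pericytes. Its log2 ratio to smooth muscle-like cells was -1.43, -1.63, -1.37 and -1.84 within the libraries, and that of the smooth muscle myosin *Myh11* was -2.13, -2.28, -1.63 and -2.25. *Serpina1b*, also among the 8 genes highest in pericytes by the sums, was at 646 CPM in D2-*mdx* pericytes and at most at 2.82 CPM in those of the other libraries.

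*Dmd*, which encodes dystrophin (chromosome X, 82948870 to 85206141, mm10), was at 383 CPM (344 to 424), 206 CPM (193 to 219), 408 CPM (391 to 426) and 157 CPM (149 to 167). The intervals of the dystrophic libraries lay below those of both wildtype libraries. The log2 ratios were -0.89 (-1.07 to -0.72) and -1.37 (-1.48 to -1.27), with satellite cell-like cells at 325, 122, 287 and 100.4 CPM. A *Dmd* UMI was found in 61.6%, 43.5%, 65.5% and 36.4% of thinned pericytes (89.8%, 70.7%, 97.2% and 62.9% unthinned). The paralogue utrophin (*Utrn*) was at 192, 126, 189 and 139.9 CPM, with log2 ratios of -0.61 (-0.85 to -0.36) and -0.43 (-0.56 to -0.31). Of 9 measured genes of the dystrophin complex, *Dmd* was the 1 gene at least 2-fold lower in D2-*mdx* (3.49% of all genes measured). None reached this size in *mdx* (2.31%). Over the alternatives of processing, the *mdx* ratio of *Dmd* ranged from -1.001 to -0.79, its lowest value just reaching this size. *Dag1* (dystroglycan) was at 228, 200.4, 213 and 229 CPM.

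Disease was compared as *mdx* over B10 and as D2-*mdx* over DBA, pairs that share no library. A gene was measured with at least 50 CPM in 1 library of the pair, and was counted with a log2 ratio of at least 1 in size. In *mdx*, 36 of 3587 genes (1.00%) were higher and 83 (2.31%) lower, and in D2-*mdx* 66 of 3585 (1.84%) were higher and 125 (3.49%) lower. Of 3307 genes measured in both, 16 (0.484%) were higher in both pairs and 28 (0.847%) lower. The median log2 ratio of all genes was -0.04 in *mdx* and -0.03 in D2-*mdx*. Scaling by TMM or by DESeq2 size factors raises every *mdx* over B10 ratio by 0.104 on the log2 scale, under which 42.5% rather than 30.3% of the counted genes were higher. Across the 3307 genes, 77.1% had the same sign in both comparisons (Pearson r = 0.70 across genes, which are not independent replicates).

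**Figure D3:**
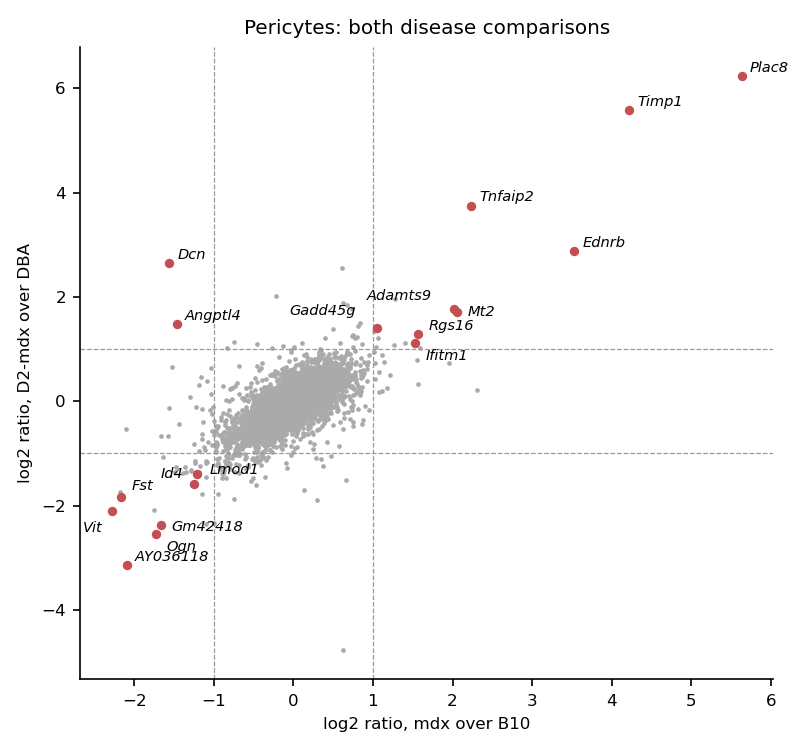
Log2 ratio of D2-*mdx* over DBA (vertical) against *mdx* over B10 (horizontal) for the 3307 genes measured in both, 1 point per gene, with dashed lines at a log2 ratio of 1 in size and named genes in red. *Plac8* and *Timp1* lie highest on both axes, *AY036118*, *Gm42418*, *Fst* and *Ogn* lie low on both, and *Dcn* and *Angptl4* lie low on one axis and high on the other.

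The contractile genes lay on the lower side. Of 17 measured, 2 were at least 2-fold lower in *mdx* and 5 in D2-*mdx* (2.31% and 3.49% of all genes), none was higher, and the list's median log2 ratio was -0.49 and -0.72. The 2 genes lower in both were *Lmod1*, at 669, 289, 654 and 250.1 CPM, and *Cnn1* (calponin, an actin-binding regulator), at 175, 72.4, 208 and 68.4 CPM. For *Lmod1* the log2 ratios were -1.21 (-1.35 to -1.07) and -1.39 (-1.47 to -1.31), and for *Cnn1* -1.27 (-1.54 to -0.996) and -1.61 (-1.76 to -1.46). Both wildtype libraries were alike for *Lmod1*, and both dystrophic ones were lower by over 2-fold.

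Of the other abundant members, the motor protein *Myh11* was counted lower in D2-*mdx* alone. It was at 1816, 1006, 2346 and 1066 CPM, with log2 ratios of -0.85 (-0.93 to -0.77) and -1.14 (-1.18 to -1.10). *Mylk*, the kinase that starts contraction by phosphorylating the myosin light chain, was at 1751, 1073, 1417 and 862 CPM, and the tropomyosin *Tpm2* at 1834, 1089.5, 2193 and 1306 CPM. The actin *Actg2* was at 320.4, 181, 472 and 264 CPM. *Acta2*, *Tagln* and *Tpm1* had log2 ratios of 0.06, 0.01 and 0.13 in *mdx* but -0.43, -0.41 and -0.60 in D2-*mdx*, and *Myl9* was at 3501, 3344, 4421 and 3927 CPM. The regulator *Srf* was at 56.8, 32.2, 50.7 and 22.7 CPM, and *Myocd*, below the minimum of 50 CPM in every library, at 34.3, 15.5, 49.96 and 18.2 CPM.

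**Figure D4:**
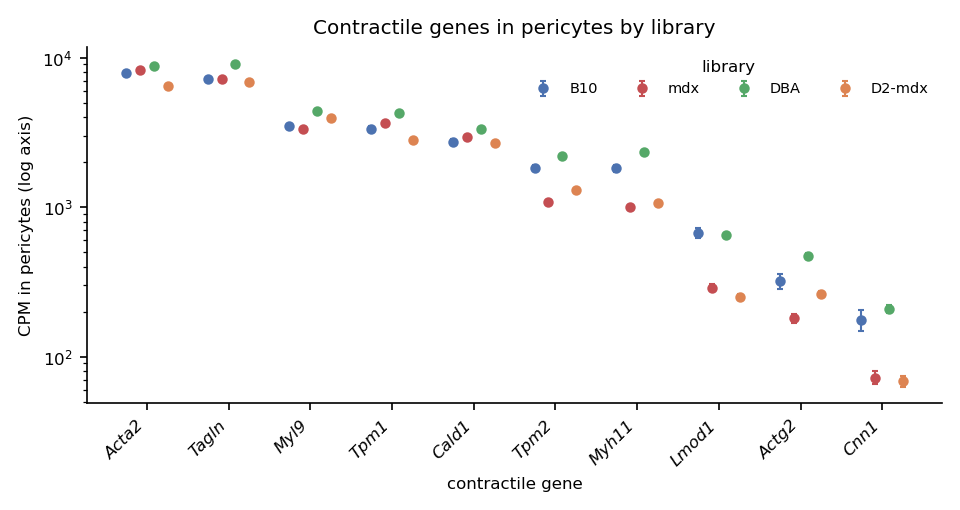
Level of 10 contractile genes in the summed pericytes of each library (CPM, log axis), with exact 95% Poisson intervals. *Lmod1* and *Cnn1* are over 2-fold lower in both dystrophic libraries, whereas *Acta2* and *Tagln* in *mdx* are at or slightly above their B10 level.

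SRF with its coactivator myocardin is known to drive smooth muscle genes through the CArG box. Promoters of 3 contractile genes are shown because Lmod1 was over 2-fold lower in both comparisons and Acta2 and Myl9 were not. Each is RefSeq sequence of build GRCm38.p6, from 250 bases before to 50 bases after the gene's start, written 5′ to 3′ on the gene's strand, with CArG boxes (a pair of C, 6 bases of A or T with at most 1 other base among them, and a pair of G) in capitals. Acta2 is at chr19:34255324-34255623 on the minus strand, Myl9 at chr2:156775214-156775513 on the plus strand and Lmod1 at chr1:135324563-135324862 on the plus strand.
Acta2: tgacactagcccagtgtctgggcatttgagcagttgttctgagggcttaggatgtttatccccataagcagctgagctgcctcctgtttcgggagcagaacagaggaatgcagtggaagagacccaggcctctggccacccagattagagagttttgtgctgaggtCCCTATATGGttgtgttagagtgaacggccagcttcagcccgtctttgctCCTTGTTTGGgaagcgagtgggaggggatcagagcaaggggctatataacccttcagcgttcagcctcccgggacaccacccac
Myl9: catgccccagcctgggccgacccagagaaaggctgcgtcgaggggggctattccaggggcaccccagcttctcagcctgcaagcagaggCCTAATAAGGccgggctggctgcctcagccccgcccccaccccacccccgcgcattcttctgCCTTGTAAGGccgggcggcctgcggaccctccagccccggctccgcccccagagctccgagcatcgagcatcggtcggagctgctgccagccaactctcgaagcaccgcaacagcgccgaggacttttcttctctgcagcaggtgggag
Lmod1: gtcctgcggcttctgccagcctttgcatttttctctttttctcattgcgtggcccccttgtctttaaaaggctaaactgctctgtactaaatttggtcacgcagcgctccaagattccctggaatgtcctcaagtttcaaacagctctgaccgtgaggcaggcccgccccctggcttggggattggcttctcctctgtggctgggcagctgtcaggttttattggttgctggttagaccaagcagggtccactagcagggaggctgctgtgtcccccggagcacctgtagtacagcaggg

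A CArG box without any other base was found in 1.63% of all 32851 promoters of this length, and one with at most 1 other base in 9.98%. The motif is palindromic, so both strands were covered. Of 20 contractile genes, 15 had a promoter in the table: 2 of them (*Myl9* and *Srf*) held a box without any other base, and 3 (with *Acta2*) a box of the wider kind. *Lmod1* held none within this window, and neither did *Cnn1*, which was lower in both comparisons, or *Tpm1*, which was 2-fold lower in neither. *Srf* held boxes and was at a lower level in both dystrophic libraries. A link between boxes and ratios was not tested.

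Genes of vascular tone had median log2 ratios of -0.51 in both comparisons, over 15 measured, with 2 and 1 counted lower (2.31% and 3.49% of all genes). *Rock1* and *Ppp1r12a*, the kinase and the myosin phosphatase subunit that set calcium sensitivity, were at 644, 377, 601 and 371 CPM and at 633, 414, 615 and 344 CPM. *Npy1r* was at 641, 367, 469 and 206 CPM. The potassium channel *Kcnk3* was at 273 CPM in B10 and 111 in *mdx*, but at 165 in DBA and 174 in D2-*mdx*, so it differed from wildtype in 1 strain pair and was within counting error in the other. *Ednra* stayed at 304 to 352 CPM in all 4 libraries.

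In contrast, *Ednrb*, the second endothelin receptor, was at 5.36, 61.6, 7.70 and 56.7 CPM. The log2 ratios were 3.52 (2.29 to 5.16) and 2.88 (2.42 to 3.38). After thinning, 9.17% (6.998 to 11.7) of *mdx* and 5.36% (4.04 to 6.95) of D2-*mdx* pericytes held an *Ednrb* UMI (14.6% and 9.61% unthinned), against 0.254% and 0.237% of satellite cell-like cells. Endothelial cell-like cells, which express this receptor, held one in 19.7% and 28.9%. It was the 1 vessel receptor of 10 measured that was higher in both comparisons (0.484% of all genes). The vessel receptors had median log2 ratios of -0.41 over 11 measured in *mdx* and -0.44 over 10 in D2-*mdx*. In each comparison, 1 receptor was counted lower (2.31% and 3.49% of all genes).

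Ligands of vessel growth had median log2 ratios of -0.35 over 14 measured genes in *mdx* and -0.64 over 12 in D2-*mdx*. Of these, 2 and 3 were counted lower (2.31% and 3.49% of all genes) and none higher (1.00% and 1.84%). *Cxcl12*, the chemokine that holds CXCR4-bearing cells, was at 1217, 927, 1399.6 and 822 CPM. *Fgf7* was at 65.4, 18.9, 22.7 and 3.23 CPM, with log2 ratios of -1.79 (-2.27 to -1.30) and -2.81 (-3.50 to -2.18), although it was below 50 CPM in both DBA-background libraries. *Vegfa* was at 105, 33.2, 80.8 and 50.9 CPM, and *Bmp2* at 129.7, 122, 168 and 74.6 CPM. None of these ligands was 2-fold lower in both comparisons at 50 CPM.

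Follistatin (*Fst*), a secreted antagonist of activin and myostatin, was at 888, 198, 685 and 193 CPM. Its log2 ratios were -2.17 (-2.30 to -2.03) and -1.83 (-1.92 to -1.74), and a UMI was found in 69.8% (58.9 to 79.2), 24.2% (20.9 to 27.8), 63.6% (59.0 to 68.0) and 31.1% (28.3 to 34.1) of thinned pericytes (84.1%, 39.9%, 85.3% and 45.6% unthinned). The shares of the wildtype and dystrophic libraries did not overlap, and satellite cell-like cells held *Fst* in at most 1.05%. *Chrdl1*, which binds BMP4, was at 95.4, 37.6, 138 and 53.8 CPM, and *Id4*, a target of BMP signalling that inhibits helix-loop-helix factors, at 1138, 481, 919 and 306 CPM. *Ctgf*, a matricellular target of TGF-beta, was at 148, 69.4, 74.6 and 27.1 CPM.

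The list of Notch and TGF-beta targets as a whole gave medians of -0.52 and -0.42, with 5 of 10 and 2 of 9 genes counted lower (2.31% and 3.49% of all genes). The *mdx* median was 0.01 with a minimum of 20 CPM and -1.05 with 100 CPM, so it rests on which genes are admitted. *Hes1*, a Notch target, was at 201, 239, 218 and 163 CPM, while *Notch3*, the mural Notch receptor, was at 837, 626, 815 and 547 CPM. *Id3* was at 972, 951, 519 and 1026 CPM, with a log2 ratio of 0.98 in D2-*mdx*.

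Matrix genes were found on both sides. Of 27 fibrillar matrix genes measured in both comparisons, 1 was higher in both (*Timp1*) and 1 lower (*Thbs1*). Of all genes, 0.484% were higher and 0.847% lower in both. The medians of the list were -0.11 and -0.03 (-0.01 and 0.01 under TMM scaling). *Thbs1*, thrombospondin and an activator of TGF-beta, was at 223, 104, 169 and 73.9 CPM. *Timp3*, which inhibits metalloproteases, was at 2756, 1813, 1877 and 929.8 CPM and *Eln* (elastin) at 624, 399, 546 and 290.3 CPM, whereas collagen III (*Col3a1*) was at 2988, 2580, 3206 and 2821 CPM. Outside the lists, *Ogn* (osteoglycin, a small proteoglycan) was at 196, 59.3, 282 and 48.1 CPM, with log2 ratios of -1.73 (-1.997 to -1.45) and -2.55 (-2.72 to -2.39), and *Vit* and *Cpxm2* were lower by log2 ratios between -2.28 and -1.75.

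*Timp1* was at 4.29, 79.5, 1.88 and 89.4 CPM in pericytes, but at 1.09, 93.1, 1.59 and 91.6 CPM in satellite cell-like cells. In thinned cells it was found in 12.1% (9.63 to 15.0) of *mdx* and 14.3% (12.1 to 16.6) of D2-*mdx* pericytes (23.7% and 27.2% unthinned), against 10.9% (9.98 to 11.8) and 11.8% (10.8 to 12.8) of satellite cell-like cells. In these dystrophic libraries the shares were the higher in pericytes and the CPM in satellite cell-like cells, so no order between the classes was read from them, and the source of the transcript was not tested. *Fn1* (fibronectin) was at 6.43, 23.5, 7.89 and 115 CPM.

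Basement membrane genes had median log2 ratios of -0.08 and -0.37, and the *mdx* median was 0.02 under TMM scaling. Counted higher were 0 of 13 and 1 of 14 measured genes (1.00% and 1.84% of all genes). None was lower (2.31% and 3.49% of all genes). *Col4a1* and *Col4a2*, which form collagen IV, were at 706, 1167, 709 and 659 CPM and at 467, 637, 395 and 384 CPM, with log2 ratios of 0.72 (0.61 to 0.84) and 0.45 (0.30 to 0.59) in *mdx* and of -0.10 and -0.04 in D2-*mdx*. *Sparc*, a collagen-binding protein, was at 4740, 5986, 4525 and 5499 CPM. *Col18a1* was at 153, 257, 110.1 and 225 CPM, and was the gene counted higher in D2-*mdx*.

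Of the 16 genes higher in both pairs, the largest ratios were those of *Plac8*, a small cysteine-rich protein of immune and epithelial cells. It was at 1.07 (1 UMI), 53.1, 2.63 and 199 CPM, with log2 ratios of 5.63 (3.14 to 10.94) and 6.24 (5.49 to 7.11). A *Plac8* UMI was found in none of the 86 thinned B10 pericytes, which allows a share of up to 3.49% by a count of 3 (4.20% by the exact upper limit), and in 9.49% (7.29 to 12.1), 0.862% (0.235 to 2.19) and 32.1% (29.2 to 35.1) of the others (1.14%, 17.0%, 1.94% and 48.6% unthinned). Satellite cell-like cells held it in at most 0.447%. The intervals of all 3 larger libraries were apart.

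Chemokine and inflammation genes had medians of 0.48 and 0.40 over 17 measured genes each, with 2 and 5 counted higher (1.00% and 1.84% of all genes) and none lower. *Il6* was at 40.7, 123, 36.4 and 73.4 CPM, with log2 ratios of 1.60 (1.12 to 2.11) and 1.01 (0.77 to 1.25), and satellite cell-like cells were at most at 1.18 CPM. *Tnfaip2* was at 10.7, 50.5, 4.32 and 58.2 CPM, and satellite cell-like cells were at 21.1 and 22.5 CPM in the dystrophic libraries. *Ccl11* had log2 ratios of 0.78 (0.66 to 0.90) and 0.13 (0.08 to 0.18). *Socs3*, the feedback inhibitor of IL-6 signalling, was at 261, 457, 226 and 533 CPM. The alarmin *Il33* was at 3.21, 39.0, 0 and 147 CPM, a log2 ratio of at least 8.02 in D2-*mdx* against a floor of 3 counts in DBA.

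Interferon and antigen presentation genes gave a median of 0.02 in *mdx* and 0.54 in D2-*mdx*. Counted higher were 1 of 24 and 1 of 18 measured genes (1.00% and 1.84% of all genes). None was lower (2.31% and 3.49% of all genes). The gene counted higher was *Ifitm1*, an antiviral membrane protein, at 345, 998, 603 and 1301 CPM. Its log2 ratios were 1.53 (1.37 to 1.70) and 1.11 (1.05 to 1.17). Its neighbours on chromosome 7, *Ifitm2* and *Ifitm3*, had log2 ratios of 0.49 and 0.34 in *mdx* and of 0.56 and 0.65 in D2-*mdx*. *B2m*, the invariant chain of MHC class I, was at 772, 787, 454 and 737 CPM, so DBA was the low library in the D2-*mdx* ratio of 0.70.

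Stress genes were higher for 6 of 35 measured in *mdx* and 5 of 31 in D2-*mdx*, with 1 lower in each and medians of 0.19 and 0.64. Of all genes, 1.00% and 1.84% were higher and 2.31% and 3.49% lower. *Gadd45g*, a growth arrest gene, was at 393, 812, 322 and 855 CPM and the cochaperone *Dnajb1* at 119, 240.2, 72.5 and 184 CPM. *Jun*, *Fos* and the heat shock gene *Hspa1a* were at 2961, 4577, 2790.1 and 4731 CPM, at 3326, 4203, 2803 and 4379 CPM, and at 1142, 2507, 1244 and 2087 CPM. *Egr1* and *Nr4a1*, of the same early response, had their highest level in B10, at 2119, 1217, 1086 and 1269 CPM and at 287, 126, 101 and 125 CPM. Genes of this list also answer to the enzymatic dissociation of muscle, whose part was not tested.

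*Rgs16*, a relative of *Rgs5*, was at 272, 806, 169 and 411 CPM, with log2 ratios of 1.57 (1.38 to 1.75) and 1.28 (1.17 to 1.39). The metallothioneins *Mt1* and *Mt2* were at 509, 1219, 297 and 625 CPM and at 40.7, 169, 31.2 and 103 CPM. *Adamts9* (15.0, 61.0, 16.2 and 55.3 CPM), *Pim1* (27.9, 67.6, 18.0 and 69.7 CPM), *Arhgdib* (105, 219.7, 34.0 and 78.8 CPM) and *Ccnd1* (23.6, 62.4, 30.8 and 67.0 CPM) completed the leading genes. *Arhgdib* had a log2 ratio of 0.74 in *mdx* when cells were weighted equally, *Ccnd1* one of 0.81 in D2-*mdx* without predicted doublets, and *Mt1* one of 0.98 in D2-*mdx* when no *Pax7* UMI was allowed, all below the size counted. Of the hypoxia and glycolysis list, 1 of 7 and 0 of 8 measured genes were counted higher (1.00% and 1.84% of all genes). None of the list was lower (2.31% and 3.49% of all genes), and its medians were 0.36 and 0.24. Its members differed: lactate dehydrogenase (*Ldha*) was at 208, 421, 209 and 402 CPM, enolase (*Eno1*) at 118, 149, 129 and 129 CPM, and *Pgk1*, below the minimum of 50 CPM, at 13.9, 12.7, 29.1 and 10.9 CPM.

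**Figure D5:**
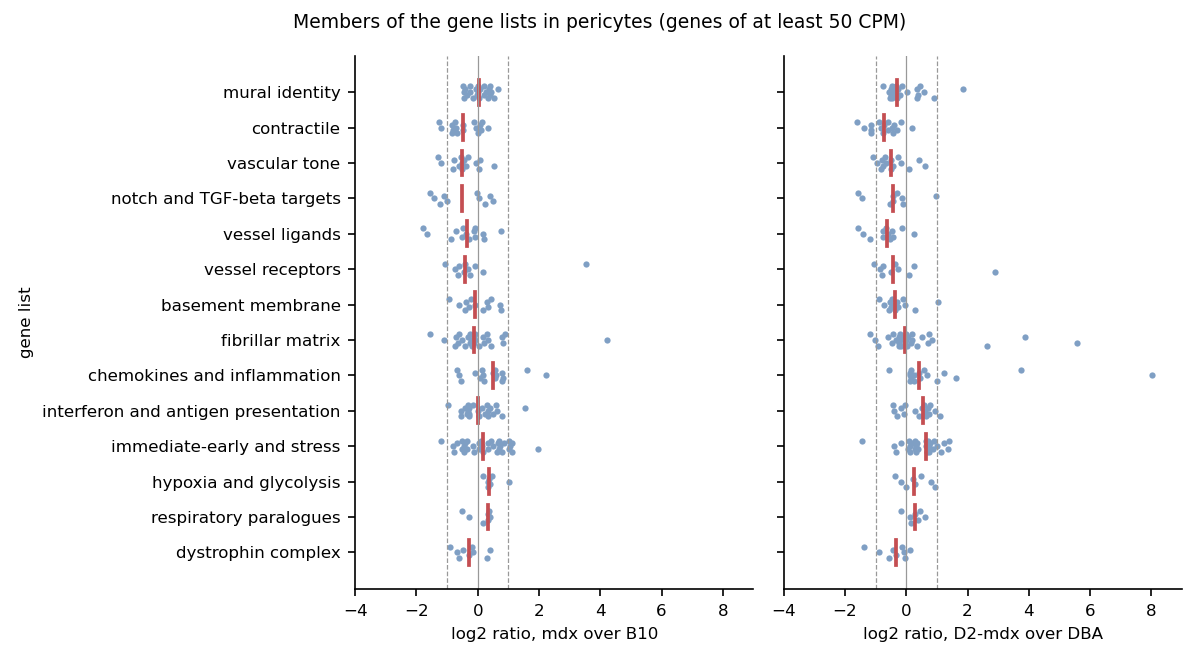
Log2 ratios of the measured members of 14 gene lists in pericytes, 1 point per gene, for *mdx* over B10 (left) and D2-*mdx* over DBA (right), with red bars at the medians and dashed lines at a log2 ratio of 1 in size. Contractile medians are -0.49 and -0.72, chemokine and inflammation medians 0.48 and 0.40; the point farthest right is *Il33*, a bound of 8.02.

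Background was compared as DBA over B10 and as D2-*mdx* over *mdx*. In DBA, 55 of 3623 genes (1.52%) were higher and 82 (2.26%) lower, and in D2-*mdx* over *mdx* 64 of 3389 (1.89%) were higher and 53 (1.56%) lower, a balance that turned at a 1.5-fold size, with 127 higher and 197 lower. Both pairs had 24 of 3147 genes (0.763%) higher and 25 (0.794%) lower. Among the 8 leading genes on each side, 6 share over 50% of the 31-base words of their last 400 transcript bases with another gene, and their counts are uncertain because reads can pass from one to the other. *Rpl29* and *Lamtor3*, also among these leading genes, are the partners of *Gm10709* and *Gm5900*, so their counts are uncertain as well. *Gm10709* was at 13.9, 2.19, 630 and 682 CPM where *Rpl29* was at 808, 1257, 96.0 and 92.6 CPM, but their sums were 822, 1259, 726 and 775 CPM.

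Other background genes had no such copy. *Mrap2*, an accessory protein of melanocortin receptors, was at 0 in B10 and *mdx* and at 77.6 and 121 CPM in DBA and D2-*mdx*, with log2 ratios of at least 4.59 and 7.67 against a floor of 3 counts. *Tmem45a* was at 18.2, 18.3, 245 and 246 CPM. *Trim12a*, an antiviral factor, was at 60.01, 53.3, 0 and 0.129 CPM, *Mndal*, an interferon-inducible gene, at 138, 199, 20.7 and 24.7 CPM, and *Ifi27l2a* at 107, 184, 15.6 and 40.6 CPM. In the interferon list, 9 of 24 genes were at least 2-fold lower in DBA than in B10 (2.26% of all genes). None was higher, and the median was -0.68. In D2-*mdx* over *mdx* only 2 of 22 were lower (1.56% of all genes) and none higher, with a median of -0.21. Of the 22 genes measured in both, 1 was lower in both (0.794% of all genes). *Dlk1*, an inhibitor of adipogenesis, was at 118, 74.6, 20.5 and 4.27 CPM.

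A single library stood apart for *Serpina1b*, which encodes the protease inhibitor alpha-1 antitrypsin. It was at 0, 1.59, 2.82 and 646 CPM, and its near-identical paralogue *Serpina1d* at 0, 0, 0.188 and 72.8 CPM. A *Serpina1b* UMI was found in 46.1% (43.0 to 49.3) of thinned D2-*mdx* pericytes (61.5% unthinned), against 0.655% in *mdx* and 0.431% in DBA. In D2-*mdx* it was also found in 1.97% of satellite cell-like cells and in 17.1% of the 76 endothelial cell-like cells. The split of reads between these paralogues is uncertain, and with 1 library of 2 pooled mice it cannot be told apart whether strain or library sets the level.

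Within a library, pericytes differed most in a few genes. Over cells thinned to 3000 UMIs, the variance was a median of 1.08 times the mean over 692 genes, near the counting value. By the lowest of the 4 libraries it was highest for *Gm42418* (21.7), *Malat1* (15.6), the calcification inhibitor *Mgp* (14.2), *Fos* (9.56), *Tagln* (9.29) and *Acta2* (9.20). *Mgp* was at 0 in the median pericyte of every library and reached 61, 101, 62 and 53 UMIs in the highest cell. *Acta2* had a median of 19, 21, 22 and 17 UMIs per 3000, with a 10th percentile of 3.5, 5, 10 and 4 and a 90th percentile of 37.5, 46, 46 and 39. Contractile level thus varied among the pericytes of each library, beyond counting.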

How the data were processed

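Per the submitters' processing notes, the authors ran Cell Ranger 3.0.1 on build mm10, and deposited raw counts per gene and barcode without normalization. The deposited tables hold 27425 barcodes (9931 B10, 7173 *mdx*, 3539 DBA and 6782 D2-*mdx*) and 27998 genes, and no column of other samples. The methods of the study also apply limits of 1000 and 5000 genes and 8% mitochondrial content. These limits came after these tables, since only 20850 of the 27425 barcodes lie within them. Most of the barcodes outside the limits are in B10. Barcodes that met the other parts of the pericyte rule were left out for over 8% mitochondrial UMIs in 17, 24, 1 and 14 cases. For under 1000 genes they were left out in 13, 0, 0 and 0 cases. The study also used a doublet filter, DoubletFinder, and whether it came before or after these tables was not tested. Pericytes were chosen by the rule in the Results, with Scrublet (scanpy 1.11.5) doublets kept. Satellite cell-like cells had UMIs of at least 2 of *Pax7*, *Myf5*, *Myod1*, *Cdh15* and *Chodl*, and endothelial cell-like cells of at least 3 of 6 endothelial genes.

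UMIs were summed over the pericytes of a library and scaled to 1000000 of their total (CPM). 3′ UMI counts do not scale with transcript length. Genes with at least 50 CPM in 1 library of a pair were compared by log2 ratio. The interval of a ratio is that of the exact binomial share of the pair of counts. A library at 0 was given a floor of 3 counts. Cells that held a UMI were counted at an equal depth of 3000 UMIs, drawn without replacement; 2 B10 pericytes were too shallow.

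The members and the 27 gene lists were chosen with earlier results of these data known. Named genes were the leading genes by ratio within each comparison and, of each list, up to 6 of the most abundant and those counted in both comparisons. Further list members, *Il33*, *Timp1* in satellite cells and the *Serpina1* paralogues among them, were named after their values were seen. Besides the 574 list genes, 6 were not found by symbol and were not analysed here. Alternatives were 3 or 5 genes needed, other gene, mitochondrial, *Pax7* and depth limits, doublets or repeated barcodes removed, TMM (edgeR 4.0.16) and DESeq2 1.42.0 scaling, equal weight per cell, and other CPM minimums and fold sizes. Ratios and intervals were tested on simulated data. Python 3.11.15, numpy 2.4.6, scipy 1.17.1, pandas 2.3.3 and R 4.3.3 were used.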

Additional observations from a re-analysis of the deposited data

Results flagged for a closer look

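Of the genes measured in both disease comparisons, 2 lay at least 2-fold lower in 1 comparison and at least 2-fold higher in the other. The difference between the comparisons was not tested, since each library is single. *Dcn* (decorin, a proteoglycan of fibroblasts) had a log2 ratio of -1.56 for *mdx* over B10 and 2.64 for D2-*mdx* over DBA, at 91.1, 30.8, 11.1 and 69.3 CPM (B10, *mdx*, DBA, D2-*mdx*). The *mdx* ratio was -0.78 when no *Pax7* UMI was allowed and -0.96 with 3 genes needed, below the size counted. In D2-*mdx*, 4.15% (2.99 to 5.58) of thinned pericytes held a *Dcn* UMI (7.38% unthinned) against 6.94% (6.15 to 7.80) of satellite cell-like cells. The counts lay in few cells: 85 UMIs in 4 of the 88 B10 pericytes, 155 in 25 of 611 in *mdx*, 59 in 11 of 464 in DBA and 536 in 73 of 989 in D2-*mdx*, where the 10 highest cells held 82.5% of them and the highest 139 UMIs. Both *Dcn* ratios thus rest on these cells. *Angptl4*, a secreted inhibitor of lipoprotein lipase, had log2 ratios of -1.46 and 1.48, at 163, 59.1, 38.3 and 107 CPM. In B10 its 152 UMIs lay in 49 of the 88 pericytes, and the 10 highest cells held 47.4% of them. Over the alternatives of processing its ratios ranged from -1.68 to -1.11 and from 1.47 to 1.59.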

How the results depend on the processing

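The labels number no replicates, and each strain is 1 library. A fit of disease over both strain pairs, with background as a block, was not run. No ratio of a leading gene changed sign (0 of 946 cases). These genes were chosen for large ratios, which made a sign change unlikely beforehand, so this is no measure of stability. List medians changed sign in 57 of 1020 cases. For D2-*mdx* over *mdx* the balance of higher and lower genes turned at a 1.5-fold size, and for both background comparisons at 20 CPM (values below). Counts of genes by direction moved over 1.5 times in 44 of 212 cases, and list medians moved past a fixed log2 size in 62 of 1020. Single genes moved outside the counting interval of their main ratio in 55 of 946, and shares outside theirs in 6 of 36. Of the single-gene cases, 20 came under the depth limit of 8487 UMIs, more than under any other alternative. With barcodes of at least 8487 UMIs the shares were 2.51% in B10, 10.1% in *mdx* and 14.5% in D2-*mdx*, and 106 genes were higher in D2-*mdx* over DBA. Without a *Pax7* limit DBA was 15.3% and D2-*mdx* 17.7%, and with no *Pax7* UMI D2-*mdx* was 15.1%. The cause was not tested. Other minimums and fold sizes moved the counts by construction, since more or fewer genes are admitted. Counts (higher and lower) at 20 CPM, 100 CPM and a 1.5-fold size were 109 and 241, 19 and 38, and 215 and 400 for *mdx* over B10. They were 137 and 215, 33 and 70, and 276 and 469 for D2-*mdx* over DBA. For both disease comparisons they were 44 and 53, 7 and 17, and 76 and 187. For DBA over B10 they were 158 and 195, 26 and 36, and 148 and 219, for D2-*mdx* over *mdx* 144 and 96, 32 and 28, and 127 and 197, and for both background comparisons 48 and 46, 12 and 15, and 48 and 76. Against satellite cell-like cells 522 genes were lower at 20 CPM, 457 higher and 210 lower at 100 CPM, and 567 lower at 1.5-fold. Against smooth muscle-like cells 1208, 298 and 1013 were higher. B10 had the fewest pericytes, at 88, and the smallest sum of UMIs, so its values are the least precise.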

Other observations

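*H2-M9*, a class Ib gene of the major histocompatibility complex, had the lowest ratio of D2-*mdx* over DBA among genes measured in both disease comparisons, and was chosen after its values were seen. It was at 66.4, 102, 53.2 and 1.94 CPM in pericytes (B10, *mdx*, DBA, D2-*mdx*), with log2 ratios of 0.62 (0.24 to 1.02) for *mdx* and -4.78 (-5.63 to -4.03) for D2-*mdx*. The D2-*mdx* library thus stood apart from the other 3. Genes of this complex resemble each other and vary between strains, so reads may be assigned differently between libraries, and the part of this was not tested.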
